A study of Mus musculus with 6 samples.

Results

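The 35 genes described here carry fatty acids into oxidation and handle the products: the carnitine shuttle and the acyl-CoA synthetases, the mitochondrial and peroxisomal oxidation enzymes, the electron transfer flavoprotein, the acyl-CoA thioesterases, a ketone body enzyme, and 3 genes tied to fatty acid binding and to the nuclear receptor PPARA. They were chosen by gene symbol from knowledge of the pathway, with earlier results of these data known. All 35 were found once each among the 17441 genes of the deposited table. RNA-seq was run on 6 mouse livers, 3 titled Ctrl and given the genotype WT, and 3 titled iKO, for a tamoxifen-inducible knockout of the kinase gene Nek7 in the whole body. All 6 livers, Ctrl included, are labelled as taken at day 10 after tamoxifen. The strain, age, sex and the driver of the inducible deletion are not given in the sources used here, and the labels number the livers without saying more about the animals, so p-values measure the spread between these samples.

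Fatty acids are first joined to coenzyme A by acyl-CoA synthetases. Long chains then cross the inner mitochondrial membrane as carnitine esters and are shortened in rounds of dehydrogenation, hydration, dehydrogenation and thiolysis. Peroxisomes shorten very long and branched chains first. In the fasted liver the acetyl-CoA formed is turned into ketone bodies, and PPARA, a receptor for fatty acids, raises many of these genes.

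Nek7 itself did not set the groups apart, at 55.5, 40.5 and 36.3 CPM (counts scaled to TMM-normalized library size) in Ctrl and 50.2, 32.8 and 31.0 CPM in the other group. Its difference was not called (edgeR quasi-likelihood, adjusted p = 0.541), so that group is called "labelled iKO" throughout. Library totals ran from 18139500 to 19912000 expected counts. Ctrl 2 and Ctrl 3 held 0 expected counts of the Y-linked genes Ddx3y and Kdm5d together, while the other 4 libraries held 573 to 1113. Below, Y-linked reads means those of Ddx3y and Kdm5d alone. Cyp2b13, higher in female mouse liver, was at 269 and 293 CPM in Ctrl 2 and Ctrl 3 and under 1 CPM elsewhere, and Mup20, higher in males, was at 162 and 111 CPM there and at 5896 to 7440.5 CPM elsewhere. By these genes Ctrl mixes both sexes while the livers labelled iKO are all male-like, so the groups differ in sex make-up. Cyp3a41a, higher in females, had the same order as Cyp2b13. The Y-linked gene Eif2s3y was at 0.266 and 0.193 CPM in Ctrl 2 and Ctrl 3 and at 14.1 to 37.1 CPM elsewhere. Other listed genes were less clear. Uty, Y-linked too, was at 33.0, 17.8 and 11.4 CPM in Ctrl and 17.6, 26.3 and 20.7 CPM in the livers labelled iKO. Elovl3, higher in males, was at 407, 2.66 and 4.59 CPM in Ctrl and 164, 10.1 and 2.33 CPM in the livers labelled iKO. Cyp2b9, higher in females, was at 1.06, 360 and 454 CPM in Ctrl and 16.5, 41.2 and 16.3 CPM in the livers labelled iKO. Of 6 listed hepatocyte markers the 5 tested were high in every library, albumin included (66386 to 91157 CPM), and 1 rose, Hnf4a, a transcription factor of hepatocyte identity (log2 fold change 0.79, adjusted p = 0.0414). The 5 stellate cell markers all fell, their summed level being 230.2 to 359.9 CPM in Ctrl and 102 to 112 CPM in the livers labelled iKO. Of 5 Kupffer cell markers 4 fell, with sums of 119.6 to 197 CPM and 65.9 to 98.5 CPM, and of 5 sinusoidal endothelial markers 2 fell, with sums of 103 to 164 CPM and 39.7 to 84.3 CPM. No defining marker of these 3 cell types was at 0 in any library, and their part in the results below was not tested. Of 4 markers each, neutrophils had 2 lower, and cholangiocytes and T and B cells had 0 called. In bulk tissue, fewer cells of a type and less RNA per cell cannot be told apart.

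Of the 35 genes, 3 differed between the groups past the test's threshold and 32 did not. A gene is said to be called, or to have risen or fallen, when its adjusted p was under 0.05 in an edgeR fit over 13160 genes. All 35 genes passed the filter on low counts, and the 3 called were Eci2 higher and Acsl3 and Crat lower. That is 8.57% of the 35, beside 15.4% of all tested genes (7.31% higher and 8.07% lower). The median log2 fold change (labelled iKO minus Ctrl) was 0.06 over the 35 genes and -0.02 over all genes, and the median size regardless of sign was 0.32 and 0.37. At an unadjusted p under 0.05 there were 10 of the 35 genes, and 33.1% of all genes. In 7 of the 35 genes (20.0%) every liver labelled iKO lay above every Ctrl liver in CPM, and in 3 (8.57%) every one lay below. Over all genes these shares were 19.8% and 19.2%.

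A gene that was not called is not shown to be equal in both groups, so the interval of the difference was read as well. For 20 of the 35 genes (57.1%), all of them uncalled, the 95% interval of the fold change lay within 2-fold in either direction, beside 54.6% of all tested genes. Among them were Cpt1a, Cpt2, Acadm, Acadvl, Hadha, Ehhadh and Bdh1. For Cpt1a the interval of the fold change, 1.04 to 1.91, lay above 1 throughout. For the other 15, the 3 called genes included, it reached past 2-fold on at least 1 side.

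**Figure D1:**
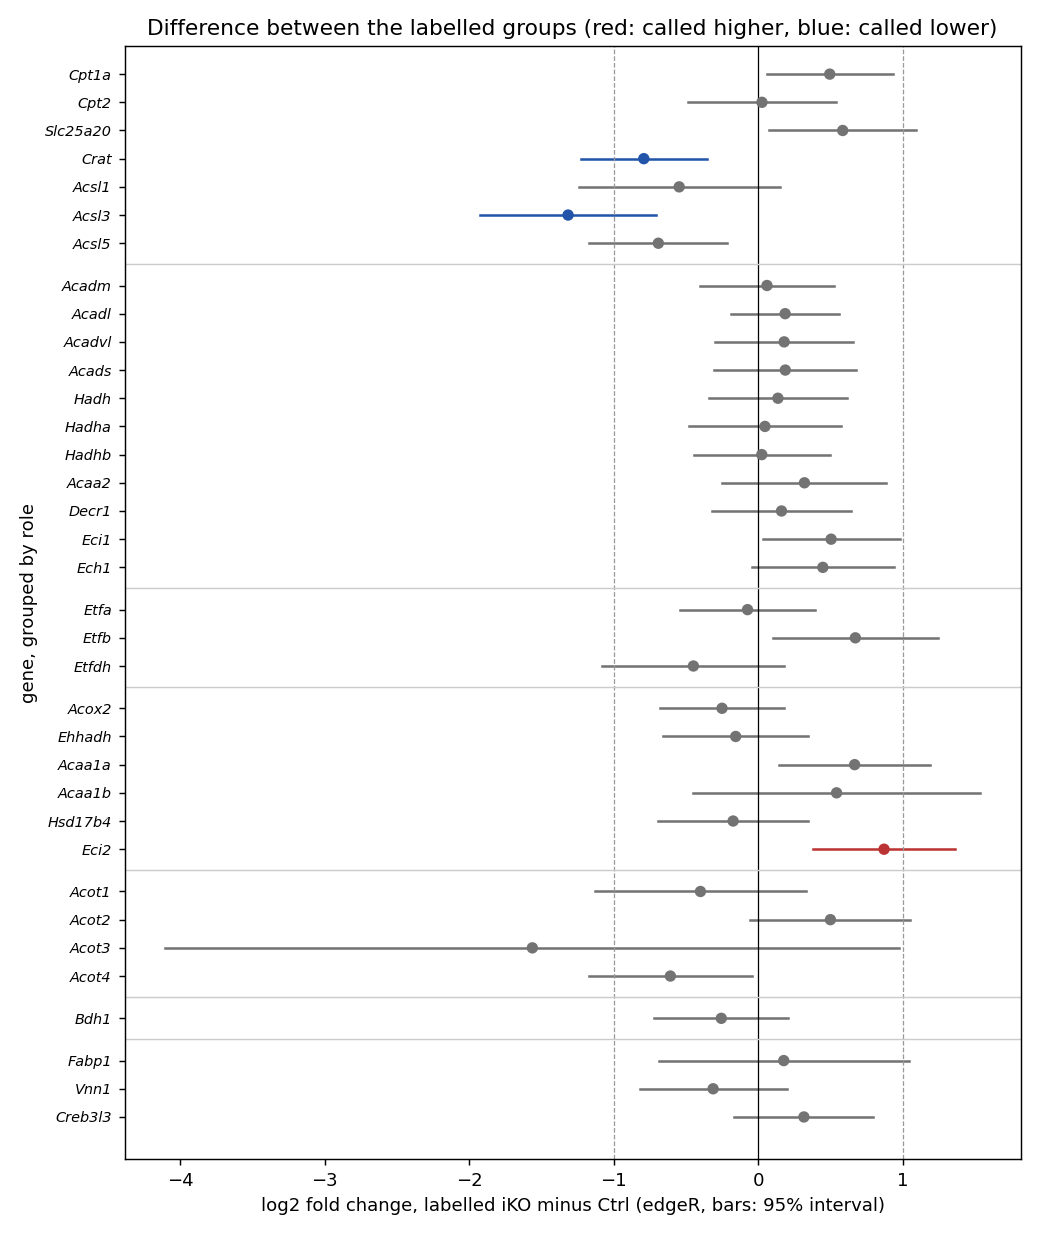
Log2 fold change of each of the 35 genes (x axis, labelled iKO minus Ctrl, edgeR fit, bars the 95% interval, n = 3 livers a group), with genes grouped by role on the y axis and dashed lines at 2-fold. Eci2 is called higher, Crat and Acsl3 lower, and Acot3 has the widest interval, from -4.10 to 0.98.

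Per transcript length, Fabp1, the fatty acid binding protein of hepatocyte cytosol, stood far above the rest at 4447, 2280 and 2254 FPKM (fragments scaled to transcript length and library size) in Ctrl and 3676, 2581 and 2524 FPKM in the livers labelled iKO. The mitochondrial thiolase gene Acaa2 was the next by mean level, at 378 ± 48.2 FPKM in Ctrl (SD, n = 3), followed by the peroxisomal thiolase gene Acaa1b at 332 ± 45.9 FPKM (SD, n = 3). Acot2, the lowest, had 2.45 ± 0.291 FPKM (SD, n = 3) in Ctrl and 2.98 ± 0.4996 FPKM (SD, n = 3) in the livers labelled iKO. Neighbours in the order of levels mostly overlapped, as Acaa2 and Acaa1b did in the livers labelled iKO (393 to 445 and 237 to 640 FPKM). Together the 35 genes took 1.31%, 1.02% and 0.975% of all TPM (length-scaled values that sum to the same total in each library) in Ctrl and 1.06%, 1.01% and 0.901% in the livers labelled iKO, so the shares of the groups overlapped.

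**Figure D2:**
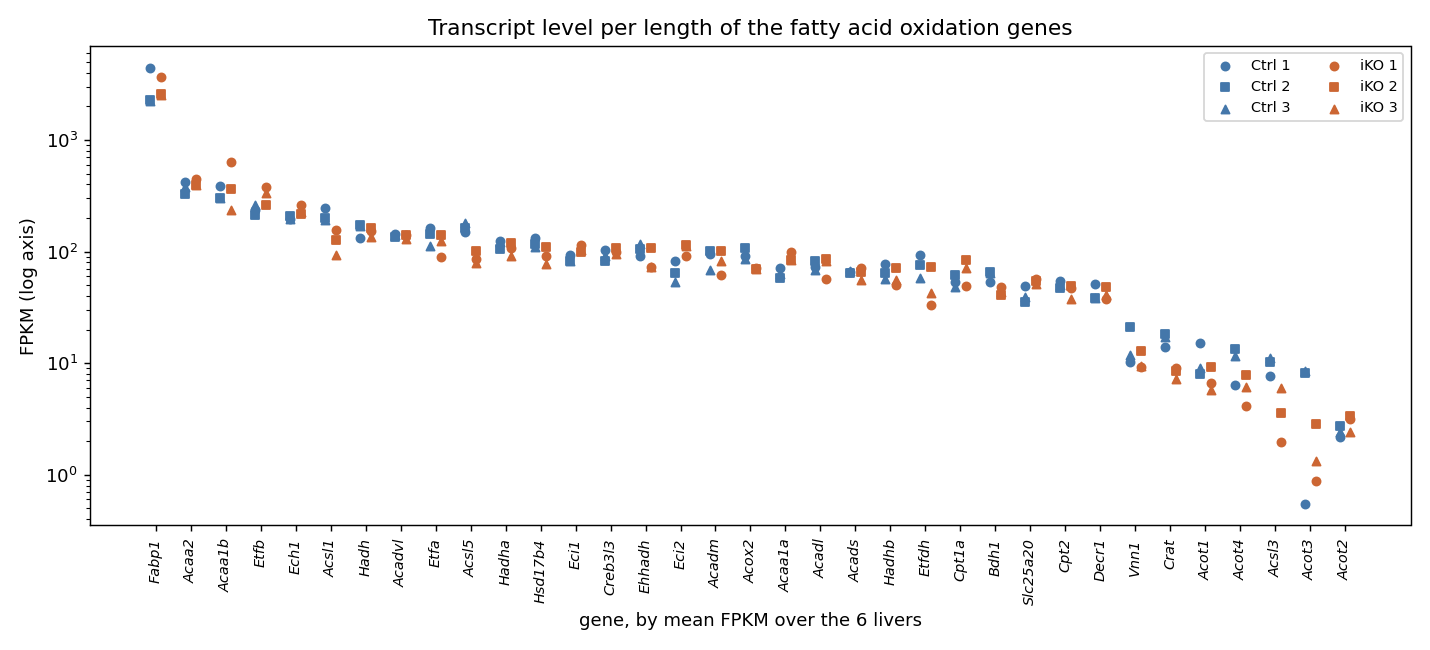
Level per transcript length (y axis, FPKM, log axis) of each gene in each of the 6 livers, ordered by the mean over all livers on the x axis; colours are groups and shapes are replicate numbers. Fabp1 lies above 2000 FPKM in every liver, and Vnn1, Crat, Acsl3 and the 4 thioesterase genes lie lowest.

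Carnitine shuttle and acyl-CoA synthetase genes held both of the falls. Acsl3, an acyl-CoA synthetase of the endoplasmic reticulum and lipid droplets, was at 29.8, 33.1 and 40.9 CPM in Ctrl and at 8.79, 13.1 and 19.7 CPM in the livers labelled iKO. Every liver labelled iKO was below every Ctrl liver (log2 fold change -1.32, SE 0.27, adjusted p = 0.0157). Its expected counts were fractional in 5 of the 6 libraries, so some of its reads may be shared with other genes. The call ended without Ctrl 2 (log2 fold change -1.32, adjusted p = 0.0506) and without Ctrl 3 (-1.18, 0.0510). It also ended once Y-linked reads entered the model as a term (log2 fold change -1.10). Ctrl 1 is the only Ctrl library with reads of Ddx3y and Kdm5d, which define the term. That fit thus in effect compares the livers labelled iKO with Ctrl 1 alone. A call lost there cannot be told apart from the loss of Ctrl livers. Crat, carnitine acetyltransferase, which moves acetyl groups between coenzyme A and carnitine, was at 39.5, 44.5 and 46.3 CPM in Ctrl and at 31.8, 24.3 and 19.2 CPM in the livers labelled iKO. These groups did not overlap either (log2 fold change -0.79, SE 0.19, adjusted p = 0.0276). That call ended when any of Ctrl 2, Ctrl 3, iKO 2 or iKO 3 was left out (log2 fold change -0.75 to -0.60, adjusted p up to 0.119). It also ended with transcript length as an offset (adjusted p = 0.0519). With Y-linked reads as a term, against Ctrl 1 alone, Crat was not called either.

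Acsl5 and Acsl1 lay on the same side as Acsl3 without passing the test. Acsl5 was at 384, 354 and 435 CPM in Ctrl and 278, 261 and 189 CPM in the livers labelled iKO, groups that did not overlap (log2 fold change -0.69, SE 0.21, adjusted p = 0.0555). It was called under upper-quartile factors (adjusted p = 0.0334), DESeq2 (0.0209) and in both fits of FPKM (0.00932 and 0.00973). With 1 library left out it was called in 0 of 6 fits (adjusted p up to 0.1655), and the replicate block did not call it (0.0909). The median of all genes was -0.08 under upper-quartile factors and -0.12 or -0.20 in the fits of FPKM, beside -0.02 in the reported fit. Acsl1, the main synthetase of the liver, was at 914, 635 and 691 CPM in Ctrl and 738, 475 and 321 CPM in the livers labelled iKO. Its groups overlapped in CPM (adjusted p = 0.249) but not in FPKM, where Ctrl held 193 to 246 and the livers labelled iKO 92.9 to 156 FPKM; the limma fits of FPKM called it (adjusted p = 0.0403 and 0.0397). Other acyl-CoA synthetase genes lay on either side of 0 and were not called, such as Acsl4 at 0.13, Acsm1 at 0.28 and Acsm3 at -0.57 on the log2 scale.

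The shuttle proper lay on the other side or near 0. Cpt1a, which makes acylcarnitines at the outer membrane and is the main control point of the pathway, was at 225, 222 and 195 CPM in Ctrl and 265, 358 and 282 CPM in the livers labelled iKO. All 3 livers labelled iKO were above Ctrl, yet the difference was not called (log2 fold change 0.49, SE 0.19, adjusted p = 0.110). With transcript length as an offset it became 0.70 (adjusted p = 0.0293), and DESeq2 called it too (0.0407). With 1 library left out Cpt1a was called in 0 of 6 fits (adjusted p up to 0.273). In both fits of FPKM its log2 fold change was 0.30 (adjusted p = 0.3539 and 0.3545). Slc25a20, the carnitine-acylcarnitine carrier of the inner membrane, was at 84.2, 51.6 and 64.2 CPM in Ctrl and 123, 94.4 and 82.1 CPM in the livers labelled iKO (log2 fold change 0.58, SE 0.23, adjusted p = 0.106). Cpt2, which returns the chain to coenzyme A inside the matrix, stood at 126, 91.9 and 111 CPM and 139.7, 115 and 81.0 CPM (log2 fold change 0.03, adjusted p = 0.951). Crat, Acsl1, Acsl3 and Acsl5 stayed negative, and Cpt1a and Slc25a20 positive, in all 16 alternative fits.

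**Figure D3:**
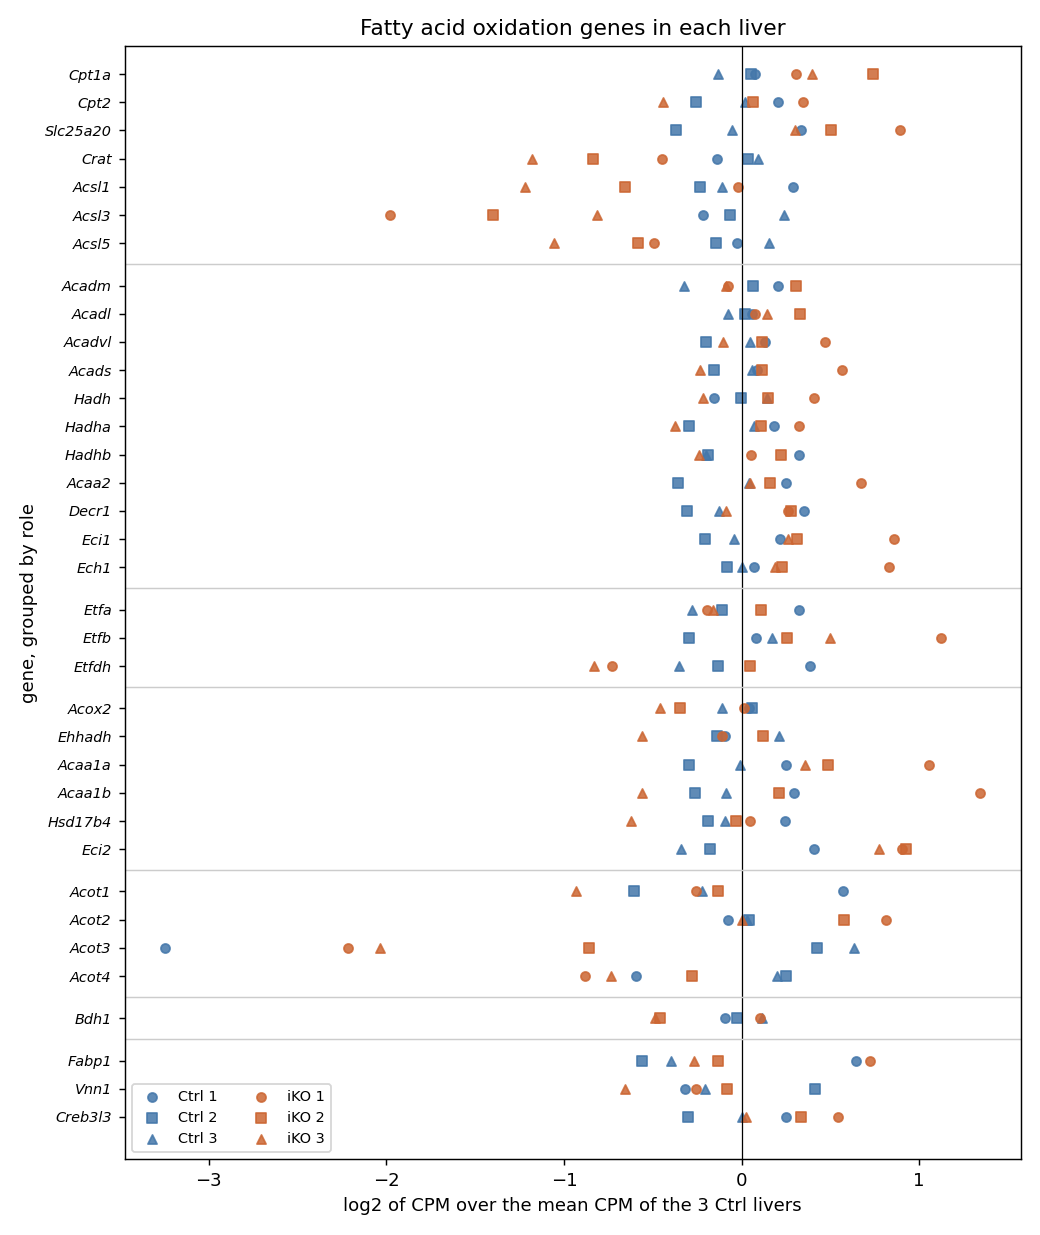
Each of the 35 genes in each of the 6 livers, as log2 of its CPM over the mean CPM of the 3 Ctrl livers (x axis), grouped by role on the y axis; colours are groups and shapes are replicate numbers. Acsl3, Acsl5 and Crat lie left of all Ctrl livers in every liver labelled iKO, Eci2 right of them, and Ctrl 1 stands far left for Acot3.

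None of the 11 mitochondrial oxidation genes was called, their adjusted p running from 0.130 to 0.949; DESeq2 called 0 of them as well, and Eci1 was the only 1 under an unadjusted p of 0.05. Their log2 fold changes ran from 0.02 to 0.50, all 11 above 0. The common sign did not hold in every fit. Values above 0 numbered 9 under upper-quartile factors, 8 without iKO 1, and 9 without Ctrl 2, Ctrl 3 or iKO 2. They numbered 7 with Y-linked reads as a term and in the 4 libraries that hold them, fits that compare with Ctrl 1 alone. In the limma fits of FPKM they numbered 3, and there the median of all genes itself was -0.12 or -0.20. Acaa2, which releases acetyl-CoA in the last step, was the highest of these by FPKM and stood at 618, 405 and 533 CPM in Ctrl and 827, 579 and 536 CPM in the livers labelled iKO. Its groups overlapped (log2 fold change 0.32, 95% interval -0.25 to 0.89, adjusted p = 0.410).

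The acyl-CoA dehydrogenases, which open each round for very long, long, medium and short chains, were nearly level: log2 fold changes were 0.18 for Acadvl, 0.19 for Acadl, 0.06 for Acadm and 0.19 for Acads. Acadvl stood at 308, 244 and 290.02 CPM in Ctrl and 389, 304 and 261 CPM in the livers labelled iKO. Hadha and Hadhb, the subunits of the trifunctional protein that carries out the later steps on long chains, had log2 fold changes of 0.05 and 0.02, with 95% intervals of -0.48 to 0.57 and -0.45 to 0.49. Hadh, the dehydrogenase for shorter hydroxyacyl chains, was at 0.14. Among the enzymes that prepare unsaturated chains, Eci1, with fractional expected counts in all 6 libraries, was at 98.6, 73.7 and 82.6 CPM in Ctrl and 154, 106 and 102 CPM in the livers labelled iKO, which did not overlap (log2 fold change 0.50, adjusted p = 0.130). Ech1, the dienoyl-CoA isomerase, followed with 215, 193 and 205 CPM and 363, 239 and 232 CPM (log2 fold change 0.45, adjusted p = 0.186), and Decr1, the dienoyl-CoA reductase, was at 0.16. In iKO 1, Eci1 and Ech1 were well above the other livers labelled iKO.

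The electron transfer flavoprotein passes electrons from the acyl-CoA dehydrogenases to the respiratory chain, and none of its 3 genes was called by edgeR; Etfb was under an unadjusted p of 0.05 and was called by DESeq2 (adjusted p = 0.0482). Etfb, the beta subunit, was at 202, 155 and 215 CPM in Ctrl and 414, 227 and 269 CPM in the livers labelled iKO. All 3 livers labelled iKO were above Ctrl, iKO 1 most of all (log2 fold change 0.67, SE 0.26, adjusted p = 0.1005). With transcript length as an offset it was 0.25 (adjusted p = 0.417). Its partner Etfa was at 231, 172 and 152 CPM and 162, 199.6 and 166 CPM (log2 fold change -0.07, adjusted p = 0.837). Etfdh, the membrane-bound oxidoreductase that accepts their electrons, was at 207, 145 and 125 CPM in Ctrl and 95.8, 164 and 89.5 CPM in the livers labelled iKO (log2 fold change -0.45, adjusted p = 0.296). The 95% intervals of the subunit genes overlapped, -0.54 to 0.39 for Etfa and 0.10 to 1.24 for Etfb.

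The single rise lay among the peroxisomal genes. Eci2, an enoyl-CoA isomerase that shifts double bonds so that unsaturated chains can be oxidised, was at 128, 85.3 and 76.4 CPM in Ctrl and 181, 184 and 165 CPM in the livers labelled iKO. No liver of one group reached the other (log2 fold change 0.87, SE 0.22, adjusted p = 0.0295). In FPKM the values were 82.1, 63.8 and 53.2 in Ctrl and 91.4, 115 and 113 in the livers labelled iKO. Its expected counts were fractional in 5 of the 6 libraries. The call ended without Ctrl 2, Ctrl 3, iKO 2 or iKO 3 (adjusted p up to 0.134), while the log2 fold change in these fits was 0.72 to 0.94. With Y-linked reads as a term, which sets the livers labelled iKO against Ctrl 1 alone, the log2 fold change was 0.46 and Eci2 was not called. Ctrl 1, the Ctrl library with Y-linked reads, was the highest Ctrl liver for Eci2. With transcript length as an offset the log2 fold change was 0.71 (adjusted p = 0.0679).

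Acaa1a and Acaa1b encode close copies of the peroxisomal thiolase, and neither gave whole expected counts in any of the 6 libraries, so reads may be split between them and their levels are less certain. Acaa1a was at 124, 84.8 and 103 CPM in Ctrl and 216, 145 and 133 CPM in the livers labelled iKO (log2 fold change 0.67, SE 0.23, adjusted p = 0.0797), and DESeq2 called it (0.0407). Acaa1b was at 611, 416 and 470.2 CPM in Ctrl and at 1264, 577 and 339 CPM in the livers labelled iKO. Its livers labelled iKO lay both above and below Ctrl, a spread that left the interval of the fold change at 0.733 to 2.89 (adjusted p = 0.419). Acox2, the oxidase for branched chains and bile acid intermediates, stood at 227, 231 and 205 CPM and 223, 174 and 161 CPM (log2 fold change -0.25, adjusted p = 0.393). Ehhadh and Hsd17b4, which encode the L- and D-bifunctional proteins of the middle steps, were at -0.16 and -0.17 (adjusted p = 0.659 and 0.633).

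The thioesterases Acot1 to Acot4 cut acyl-CoA back to free fatty acid and coenzyme A, Acot1 in the cytosol, Acot2 in mitochondria and the other 2 in peroxisomes. None was called. All 4 had fractional expected counts in each of the 6 libraries, and reads may be shared between these related genes. By edgeR, Acot4 was the only 1 at an unadjusted p under 0.05, and DESeq2 called 0. Acot1, the highest by FPKM, was at 22.9, 10.2 and 13.2 CPM in Ctrl and 12.9, 14.1 and 8.09 CPM in the livers labelled iKO, which overlapped (log2 fold change -0.40, 95% interval -1.13 to 0.33). Acot2 was at 4.67, 5.06 and 5.03 CPM and 8.66, 7.34 and 4.93 CPM.

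Acot3 divided the libraries as the Y-linked reads did. It was at 1.43 CPM in Ctrl 1 against 18.2 and 21.1 CPM in Ctrl 2 and Ctrl 3, and at 2.93, 7.51 and 3.32 CPM in the livers labelled iKO. The 4 libraries with Y-linked reads all lay below the other 2. Its log2 fold change was -1.56 with SE 0.99 (adjusted p = 0.338), and -2.09 and called without Ctrl 1 (adjusted p = 0.0123). With Y-linked reads as a term, against Ctrl 1 alone, the log2 fold change was 1.68. Acot4 had the same order in a milder form, at 14.4 CPM in Ctrl 1, 25.97 and 25.0 CPM in Ctrl 2 and Ctrl 3, and 11.9, 17.96 and 13.1 CPM in the livers labelled iKO (log2 fold change -0.61, adjusted p = 0.125). Without Ctrl 1 it was -0.83 and called (adjusted p = 0.0354). With Y-linked reads as a term, against Ctrl 1 alone, it was -0.01.

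Bdh1, the mitochondrial dehydrogenase that interconverts the ketone bodies acetoacetate and 3-hydroxybutyrate, was at 163, 171 and 188 CPM in Ctrl and 187, 126 and 124 CPM in the livers labelled iKO. The groups overlapped, and the interval of the fold change was 0.608 to 1.16 (adjusted p = 0.420). Among 8 other ketone body genes 0 rose and 1 fell, beside 7.31% and 8.07% of all tested genes. The fall was that of Slc16a1, a membrane carrier of lactate and ketone bodies, from 53.4 ± 3.32 to 27.7 ± 2.69 CPM (both SD over 3 livers, edgeR adjusted p = 0.00503).

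Of the genes tied to PPARA and fatty acid binding, none was called, either by edgeR or by DESeq2, and 0 of the 3 had an unadjusted p under 0.05 in edgeR. Fabp1 was at 2069, 899 and 1004 CPM in Ctrl and 2182, 1208 and 1099 CPM in the livers labelled iKO. Library 1 was the highest in both groups, and the log2 fold change of 0.18 (SE 0.38, adjusted p = 0.781) turned to -0.47 with Y-linked reads as a term and to -0.48 with transcript length as an offset. Creb3l3, a membrane-bound transcription factor of the fasting response, was at 205, 140.1 and 173 CPM and 251, 218 and 176 CPM (log2 fold change 0.32, adjusted p = 0.335). Vnn1, a pantetheinase that helps recycle the vitamin part of coenzyme A, was at 22.6, 37.5 and 24.5 CPM and 23.6, 26.7 and 17.9 CPM (log2 fold change -0.31, adjusted p = 0.370).

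Sequence just upstream of 3 transcription starts is shown, for Fabp1 because it had the highest level and holds the site letters bound by PPARA with its partner RXR, and for Acsl3 and Eci2 because both were called. Crat, also called, had no promoter entry among those used. The stretches are from RefSeq (GRCm38.p6, another build than the mm9 the authors' notes name), end at the base before the start and are written 5′ to 3′ on the gene's strand. Capitals mark the direct repeat in Fabp1 (chr6:71199759-71199878, plus strand) and the CCAAT box in Acsl3 (chr1:78657575-78657824, plus strand) and Eci2 (chr13:34994145-34994394, minus strand).
Fabp1: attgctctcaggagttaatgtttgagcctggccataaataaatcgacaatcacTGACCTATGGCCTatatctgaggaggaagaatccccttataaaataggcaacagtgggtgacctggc
Acsl3: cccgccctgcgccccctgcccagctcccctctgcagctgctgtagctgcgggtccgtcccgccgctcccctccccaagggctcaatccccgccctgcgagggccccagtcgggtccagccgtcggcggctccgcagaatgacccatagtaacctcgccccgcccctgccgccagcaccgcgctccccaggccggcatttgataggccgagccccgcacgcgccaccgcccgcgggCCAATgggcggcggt
Eci2: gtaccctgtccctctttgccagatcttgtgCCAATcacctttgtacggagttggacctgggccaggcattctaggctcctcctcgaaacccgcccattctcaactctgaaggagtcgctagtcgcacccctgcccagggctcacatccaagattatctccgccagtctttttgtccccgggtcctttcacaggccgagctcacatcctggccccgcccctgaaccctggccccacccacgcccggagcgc

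Promoter entries were found for 30 of the 35 genes, 35 stretches in all, and the 250 bases before each start were searched on both strands. The direct repeat, spelled AGGNCANAGGNCA, was found in 1 of these 35 stretches (2.86%), that of Fabp1, and in 0.338% of all 32851 stretches. The CCAAT box, spelled CCAAT, was found in 19 of 35 (54.3%) and in 33.8% of all stretches. By gene this was 18 of 30, as Acot3 was counted at more than 1 start. The E-box CACGTG was found in 1 (Acot4; 2.86% beside 6.02% of all), and the D-box TTATGTAA, the CRE TGACGTCA and the ERR element TCAAGGTCA in 0, beside 0.819%, 1.55% and 0.387% of all. No searched motif contains another in full. These are matches of letters only, and no binding was measured.

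Of 89 other genes of fatty acid use and its control, 83 were tested, 8 rose and 3 fell, with a median log2 fold change of 0.07. Over all tested genes 7.31% rose and 8.07% fell, the shares to set beside each list count here and in the next paragraph. Slc22a5, the carnitine importer of the cell membrane, rose from 11.5 ± 0.617 to 27.9 ± 5.21 CPM (both SD over 3 livers, edgeR adjusted p = 0.00297), the 1 call among 13 other carnitine and import genes. Hacl1, the lyase of peroxisomal alpha-oxidation, which removes single carbons from branched chains, fell from 361 ± 14.9 to 114 ± 45.6 CPM (both SD over 3 livers, edgeR adjusted p = 0.00959), the 1 call among 17 other peroxisomal genes. Among 13 other mitochondrial genes Mcee, the methylmalonyl-CoA epimerase of odd-chain use, rose (log2 fold change 0.72, adjusted p = 0.0173), as did Acot13, a small thioesterase (0.50, adjusted p = 0.0428). With transcript length as an offset these were 0.28 and -0.0077, and neither was called.

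Of 17 tested genes listed as PPARA targets outside oxidation, 3 rose and 0 fell. The 17 include Cpt1b, which was not called and is also counted among the carnitine and import genes. Angptl4, an inhibitor of lipoprotein lipase, rose from 31.3 ± 19.3 to 229.8 ± 63.6 CPM (SD over 3 livers, edgeR adjusted p = 0.00780). Plin5, a lipid droplet coat protein of oxidising cells, rose from 21.1 ± 1.94 to 50.4 ± 7.91 CPM (SD over 3 livers, edgeR adjusted p = 0.00251). Cidec, a droplet fusion protein, rose from 0.650 ± 0.208 to 3.50 ± 1.13 CPM (SD over 3 livers, edgeR adjusted p = 0.00572). Of 6 adipocyte markers 1 passed the filter, Fabp4, at 3.37 to 4.25 CPM in Ctrl and 2.44 to 6.004 CPM in the livers labelled iKO. Adipoq gave at most 2, Retn at most 1, Plin1 at most 6 and Cfd at most 25 expected counts in any library. Pdk4, the PPARA target that restrains glucose oxidation, was at 22.7, 11.5 and 17.8 CPM and 22.8, 6.004 and 2.39 CPM (adjusted p = 0.581), and Cyp4a10 and Cyp4a14, the fatty acid omega-hydroxylases, were not called (adjusted p = 0.497 and 0.645). Among 16 regulators Ppard, a relative of PPARA, fell from 44.0 ± 2.88 to 11.5 ± 2.69 CPM (both SD over 3 livers, edgeR adjusted p = 0.000587). Lpin1, a phosphatidate phosphatase that also coactivates PPARA, rose from 51.3 ± 25.6 to 889 ± 289 CPM, and Tfeb, a lysosomal regulator, from 8.61 ± 1.06 to 13.9 ± 1.94 CPM (all SD over 3 livers, edgeR adjusted p = 0.000804 and 0.0359). Ppara itself was at 168, 135 and 150.1 CPM in Ctrl and 172, 209.5 and 168 CPM in the livers labelled iKO (log2 fold change 0.28, adjusted p = 0.315). With a term for Y-linked reads, which compares the livers labelled iKO with Ctrl 1 alone, the calls of Ppard, Lpin1 and Angptl4 held. Other calls of the wider pathway ended there, where sex and the loss of Ctrl livers cannot be told apart. With 1 library left out, the call of Mcee held in 4 of the 6 fits, that of Tfeb in 1 and that of Acot13 in 0. The other 8 calls of the wider pathway held in all 6.

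The pathway terms in the deposited table, which the choice of genes did not use, placed 18 of the 35 genes under fatty acid degradation, with 1 higher and 1 lower, beside 0 higher and 1 lower of 25 other genes of that term. Under the peroxisome term 11 of the 35 genes held 1 higher and 2 lower, beside 1 and 2 of 67 others. Under PPAR signaling 12 held 0 higher and 1 lower, beside 5 and 3 of 58 others. Over all tested genes 7.31% were called higher and 8.07% lower. Other terms that hold some of the 35 genes are not given here.

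Within each group, the same liver was the highest or lowest for most of the 35 genes. iKO 3 was the lowest liver labelled iKO for 28 of the 35 genes (80.0%), beside 29.9% of all tested genes, and iKO 1 the highest for 21 (60.0%, beside 38.5%), with iKO 2 the highest for 13. Ctrl 1 was the highest Ctrl liver for 23 (65.7%, beside 35.7%). The median coefficient of variation over the genes was 16.6% in Ctrl and 23.6% in the livers labelled iKO. iKO 1 also had the lowest TMM factor of the 6 libraries, 0.780, where the others ran from 0.990 to 1.18. iKO 3 held 51.9 expected counts of Acta1, 51.6 of Myh4 and 23 of Tnnt3, muscle genes with at most 3.09 in any other library; the part of these in the order of livers was not tested.

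Fold changes of the 35 genes followed transcript length, as those of all genes did. The rank correlation (Spearman's rho) between effective length and log2 fold change was -0.60 over the 35 genes and -0.35 over 12995 genes, as a description across genes that share the same 6 libraries. The 6 genes under 1500 bases had a median log2 fold change of 0.38 with 5 above 0, the 18 from 1500 to 2500 bases had 0.16 with 13 above 0, and the 11 longer ones had -0.26 with 3 above 0. With length as an offset the median over the 35 was 0.02, and Acsl3 lower and Cpt1a higher were the 2 calls.

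**Figure D4:**
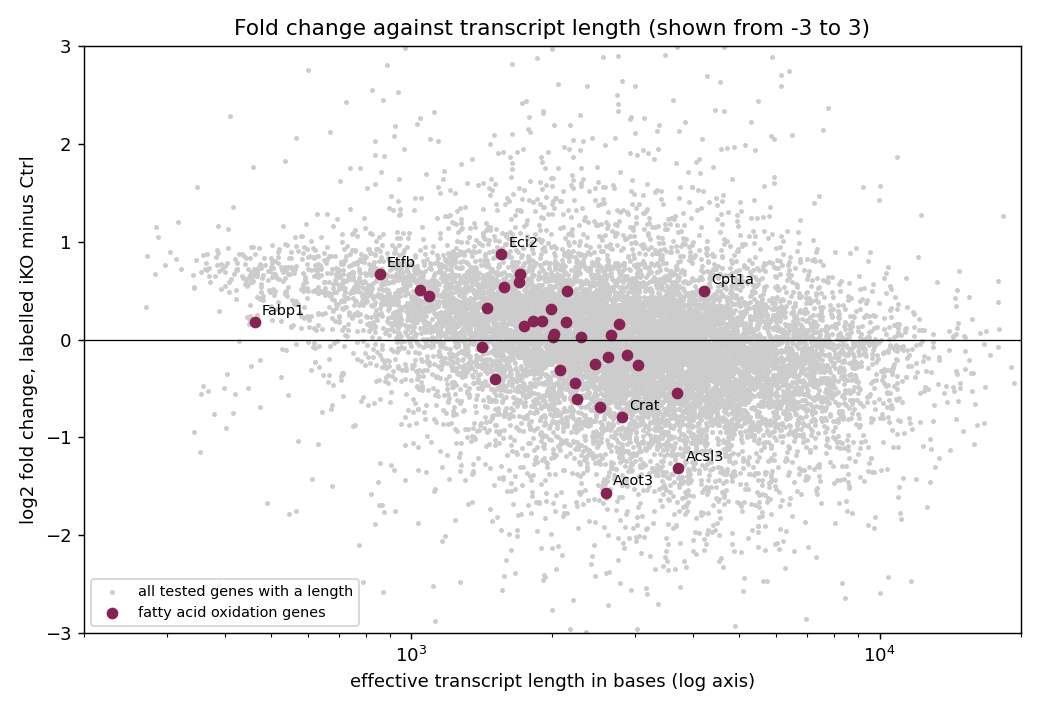
Log2 fold change (y axis, labelled iKO minus Ctrl) against effective transcript length in bases (x axis, log axis), with all tested genes in grey and the 35 fatty acid oxidation genes in colour. Short genes such as Etfb lie above 0 and long ones such as Acsl3 below, while Cpt1a is long and above 0.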

How the data were processed

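RNA-seq of 6 mouse livers was analysed from 1 deposited table. The submitters' processing notes name RSEM 1.2.12, Bowtie2 2.2.5, HISAT2 2.0.4 and build mm9, and whether strand was counted is not given there. The authors deposited expected counts (64.9% to 68.3% of values whole, tolerance 0.001), FPKM and TPM for each library; the FPKM and TPM values the authors deposited carry no TMM factor. Expected counts were rounded and tested with edgeR 4.0.16 in R 4.3.3 (filterByExpr, TMM, robust quasi-likelihood test, with p-values adjusted by Benjamini-Hochberg over 13160 genes and a threshold of 0.05). Standard errors were back-computed from the F statistic. Effective lengths came from expected counts and FPKM of at least 0.2.

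Alternatives were DESeq2 1.42.0, RLE factors, upper-quartile factors, no filter on low counts, and limma 3.58.1 on log2 FPKM with a pseudocount of 1 or 0.1. Others were the replicate number as a block, leaving out each library, and the lowess trend over length (span 0.3) as an offset. A term for Y-linked reads (Ddx3y plus Kdm5d over 10 expected counts) and the 4 libraries with such reads were also used. Both of these in effect compare the livers labelled iKO with Ctrl 1 alone, so they are not separate checks. The fit was tested on simulated data for this comparison over 13000 genes: 41% of 100 genes changed 2-fold and 91% of 100 changed 4-fold were recovered, with 0 in the wrong direction and 18 false among 150 calls.

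The genes and lists were chosen with earlier results of these data known. By rule, called genes, the uncalled gene of highest FPKM in each role group, and up to 4 called genes of each other list were to be given in full; Acsl5, Cpt1a, Slc25a20, Acadvl, Eci1, Ech1, Etfa, Etfdh, Acaa1a, Acot2, Acot3, Acot4, Creb3l3, Vnn1, Ppara, Pdk4, Cyp4a10 and Cyp4a14 were added after their values were seen. Listed genes without a row in the table were not analysed here, and some results are not reported here.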

Additional observations from a re-analysis of the deposited data

How the results depend on the processing

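The 3 calls among the 35 genes ended in some fits with 1 library left out, in which the log2 fold changes were -0.99 to -0.60 for Crat, -1.63 to -1.07 for Acsl3 and 0.72 to 1.13 for Eci2. Members called higher numbered 4 by DESeq2, 0 to 1 when 1 library was left out, 0 with a term for Y-linked reads and 0 in the 4 libraries with such reads, against 1 in the reported fit. Members called lower numbered 4 in both limma fits of FPKM, 0 to 4 when 1 library was left out, 0 with the Y-linked term, 0 in the 4 libraries and 1 with the length offset, against 2. The 11 calls of the wider pathway became 3 with the Y-linked term and 2 in the 4 libraries. Over all genes 2024 were called, 491 to 1840 when 1 library was left out, 184 with the Y-linked term and 143 in the 4 libraries; the 962 higher and 1062 lower became 421 and 931 in the limma fit of log2(FPKM + 1) and 427 and 926 at a pseudocount of 0.1. The cause of these changes was not tested, except that leaving out libraries lowers the number of samples. Both fits on Y-linked reads set the livers labelled iKO against Ctrl 1 alone, so their counts cannot separate sex from fewer livers. RLE factors, no filter and the replicate block left the 35 genes at 1 higher and 2 lower. With the replicate block 1710 genes were called; deviations of same-numbered livers correlated at 0.207, 0.218 and 0.0458, so the numbers were not taken to pair the livers.

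Of the 35 genes 18 kept their sign in all 16 alternatives. No gene changed sign while called in the alternative, and the changed signs were these log2 fold changes. Upper-quartile factors: Cpt2 -0.036, Hadha -0.014 and Hadhb -0.031. Limma on log2(FPKM + 1): Cpt2 -0.18, Acadm -0.12, Acadl -0.0051, Acadvl -0.022, Acads -0.034, Hadh -0.069, Hadha -0.16, Hadhb -0.16 and Decr1 -0.0099; on log2(FPKM + 0.1): Cpt2 -0.19, Acadm -0.12, Acadl -0.0054, Acadvl -0.022, Acads -0.034, Hadh -0.070, Hadha -0.16, Hadhb -0.16 and Decr1 -0.010. Term for Y-linked reads: Cpt2 -0.18, Acadm -0.15, Hadha -0.14, Hadhb -0.30, Decr1 -0.19, Acot3 1.68, Fabp1 -0.47 and Vnn1 0.0074. The 4 libraries with Y-linked reads: Cpt2 -0.17, Acadm -0.14, Hadha -0.13, Hadhb -0.29, Decr1 -0.18, Acot3 1.68, Fabp1 -0.45 and Vnn1 0.015. Length offset: Hadhb -0.036, Fabp1 -0.48 and, of the wider pathway, Acot13 -0.0077. With 1 library left out, values ran from -0.16 to 0.245 for Cpt2, -0.080 to 0.179 for Acadm, -0.043 to 0.392 for Acads, -0.019 to 0.317 for Hadh, -0.111 to 0.252 for Hadha, -0.067 to 0.221 for Hadhb, -0.198 to 0.120 for Etfa, -0.282 to 0.041 for Ehhadh, -0.12 to 0.92 for Acaa1b, -0.293 to 0.037 for Hsd17b4, -0.604 to 0.00098 for Acot1 and -0.196 to 0.655 for Fabp1. No value here separates what depth limits from the spread between livers.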
